A study of Penicillium oxalicum with 10 samples.

Results

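The genes described here encode the proteins of the cytosolic ribosome of the filamentous fungus Penicillium oxalicum. A gene was taken as a member when its KEGG Orthology name reads as a ribosomal protein of the eukaryotic type, with a family name ending in e, or as LP0, LP1 or LP2. This gave 80 of the 9859 genes in the table, with 77 family names. Of these, 33 belong to the small subunit, 44 to the large subunit and 3 to the P stalk. No gene carried the name L40e or L41e. The naming rule itself reads no measured value, although the genes were chosen for description with earlier results of these data known, and 79 of the 80 members passed the filter on low values described below. The small subunit binds the messenger RNA and reads its codons, the large subunit joins amino acids into a chain, and the P stalk is the flexible arm of the large subunit to which translation factors bind. In fungi such as budding yeast the genes for these proteins are among the most strongly transcribed, and their transcripts follow the growth rate together. Mature ribosomes hold nearly all of these proteins in equal number, so a matched supply of the parts is the usual state in growing cells.

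The transcripts were measured by sequencing of RNA from mycelia in 10 libraries. A library came from strain M12, labelled as the wild type, and each of the others from a strain with the label of a deletion of stuA, swi6, wetA, abaA or flbA to flbE (that is flbA, flbB, flbC, flbD and flbE), which are names of regulators of asexual spore formation and of gene silencing or the cell cycle. Cultures of all strains used a modified Czapek medium that held 2% glucose, with a preculture of 20 h at 30 °C and then 48 h in new medium before the mycelia were collected on filter paper. Each genotype has 1 library and no replicate, so no difference below carries a test, and the intervals given cover counting error only.

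Library totals lay between 3.10 M (mega) reads in the flbA deletion library and 7.60 M in the library labelled flbD deletion, with 5.15 M in wild type. The gene PDE_06605 alone took 27.9% of the flbA deletion library's reads, while it had 7.73% of those of wild type and 0.0738% of those of the stuA deletion library, which bears on every value scaled by the read total. The targeted gene could be followed for some strains. The gene named SOK2 (PDE_04095), whose yeast family includes StuA, had 3725 reads in wild type and 1 in the stuA deletion library. No gene is named swi6. A chromobox protein 1 (PDE_08896), whose chromodomain family holds Swi6 of fission yeast, had 164 reads in wild type and 1 in the swi6 deletion library, a pairing made after the values were seen. FlbD (PDE_03008) stood at 327 RPKM in the library labelled flbD deletion against 341 in wild type, and the gene named transcriptional enhancer factor (PDE_02932), the family of AbaA, at 59.1 RPKM in the library labelled abaA deletion against 28.5 in wild type, so the data go against both labels. BrlA (PDE_00087), the regulator that starts conidiophore formation, stood at 248 RPKM in wild type, at 1.79 RPKM in the swi6 and 1.30 RPKM in the stuA deletion library, and had 1 read in the flbA deletion library.

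Transcripts of the 80 members took a far smaller share of the swi6 deletion library than of any other library. Their share of all reads was 2.22% in wild type, against 2.71% in the flbA, 1.55% in the flbB and 2.38% in the flbC deletion libraries. It was 2.44% in the library labelled flbD deletion, 1.67% in the flbE and 1.78% in the wetA deletion libraries, 2.28% in the library labelled abaA deletion and 2.20% in the stuA deletion library. In the swi6 deletion library it was 0.452%, with a 95% Wilson interval of 0.447 to 0.458%. The swi6 deletion library lay below all others, and the interval of wild type, 2.21 to 2.24%, shows how narrow the counting error of these shares is. The reads carry no molecular identifiers. RNA from bulk mycelium cannot tell fewer cells of a kind that expresses a gene apart from less RNA in each cell.

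The same was seen gene by gene. RPKM divides the reads of a gene by its coding length and by the library total, which allows levels of different genes to be compared. The median level of the 79 members was 521 RPKM in wild type, against 639 in the flbA, 358 in the flbB and 595 in the flbC deletion libraries, 562 in the library labelled flbD deletion, 384 in the flbE and 409.6 in the wetA deletion libraries, 547 in the library labelled abaA deletion and 507 in the stuA deletion library. In the swi6 deletion library the median was 95.5 RPKM. The median over all 9134 genes that passed the filter, a mean of at least 1 RPKM over the libraries, was 29.3 RPKM in wild type and 26.8 in the swi6 deletion library. The swi6 deletion library was the lowest of the 10 for 77 of the 79 members, and the flbA deletion library was the highest for 39. These ranks were not counted over all kept genes, and levels in the flbA deletion library depend on scaling, as described below. At least 2-fold below all other libraries in that of swi6 stood 72 of 79 members, against 1.14% of all kept genes. At least 2-fold above all others in that of flbA stood 1 member, against 2.09%.

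**Figure D1:**
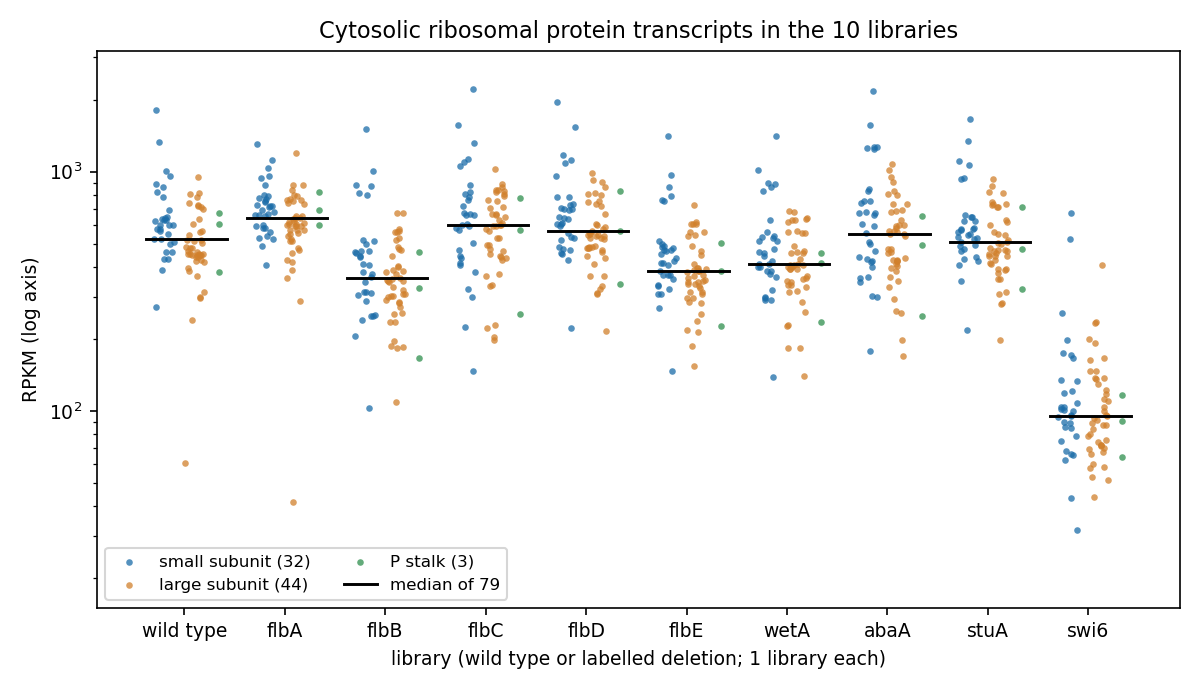
RPKM (log axis) of the 79 members in each library, 1 point per gene, coloured by subunit, with the median of the 79 as a black line. The median lies between 358 and 639 RPKM in 9 libraries and at 95.5 RPKM in the swi6 deletion library, and the points of all 3 groups are displaced together there.

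Differences from wild type were taken as log2(RPKM + 1) in a deletion library minus the same in wild type, and a gene was counted as higher or lower when it was at least 2-fold apart on that scale. In the swi6 deletion library the median difference of the members was -2.46, a 5.52-fold lower level, while the median of all kept genes was -0.14. There 76 of 79 members were lower and 1 was higher, against 11.9% of all kept genes lower and 11.0% higher. The subunits were displaced alike. The median was -2.53 for the small subunit, with 31 of 32 members lower, -2.39 for the large subunit, with 42 of 44 lower, and -2.51 for the P stalk, with 3 of 3 lower. Other abundant genes did not share the low level. They were the 668 other genes with a mean RPKM at or above that of the weakest expressed member, 194.5 RPKM. Their median difference was 0.17 and 12.7% of them were lower. The mean was taken over all libraries, that of swi6 among them, so the choice of these genes is not independent of the values compared.

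Wild type was not needed as the reference for this. Set against each of the other deletion libraries in turn, a comparison chosen after the values were seen, the swi6 deletion library had a member median between -1.88, against the flbB deletion library, and -2.72, against the flbA deletion library. At least 2-fold lower than in the flbA deletion library were 75 of 79 members, where 10.3% of all kept genes were. For the flbB and flbC deletion libraries the counts were 73 and 77 members, against 14.3 and 14.0% of all kept genes, and for the flbE and wetA deletion libraries 75 and 76, against 13.1 and 15.9%. For the libraries labelled flbD and abaA deletion they were 77 and 77, against 14.2 and 18.5%, and for the stuA deletion library 77, against 13.2%. At least 2-fold below all 9 other libraries at once stood 72 of 79 members, against 1.14% of all kept genes, and the members made up 69.2% of the 104 genes with that pattern. Among the 36 pairs of the 9 remaining libraries, the number of members at least 2-fold apart ran from 0 to 31, was under 10 in 33 pairs, and the largest median difference was 0.89 in size, between the flbA and the flbB deletion libraries. That pair also had the 31 members, where 44.1% of all kept genes were at least 2-fold apart, and over the 36 pairs this share ran from 2.58 to 50.1%.

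In the small subunit the largest differences in the swi6 deletion library belonged to S3e and S20e, both parts of the head of the small subunit. S3e (PDE_02754), which lines the channel where the messenger RNA enters, stood at 431 RPKM in wild type and between 240.0 and 598 RPKM in the other 8 libraries, and at 43.3 RPKM in the swi6 deletion library. This is 9.96-fold lower than wild type (95% exact interval 8.58 to 11.6). S20e (PDE_01695) stood at 629 RPKM in wild type and at 66.0 in the swi6 deletion library, 9.52-fold lower (7.94 to 11.5). Both genes were lower in the swi6 deletion library than in every other library. SAe (PDE_05108), the laminin receptor homologue that is part of the small subunit in fungi as in animals, was 8.58-fold lower (7.28 to 10.2), and S27Ae (PDE_04897), which is made as a fusion to ubiquitin, 5.15-fold lower (4.74 to 5.61).

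In the P stalk, LP0 anchors the stalk to the ribosomal RNA and binds the acidic proteins LP1 and LP2, which recruit the elongation factors. LP1 (PDE_02590) stood at 602 RPKM in wild type, against 819 in the flbA, 325 in the flbB and 571 in the flbC deletion libraries, 566 in the library labelled flbD deletion, 383 in the flbE and 415 in the wetA deletion libraries, 491 in the library labelled abaA deletion, 474 in the stuA deletion library and 64.3 in that of swi6. LP2 (PDE_03779) ranged from 456 RPKM in the wetA deletion library to 830.0 in the library labelled flbD deletion over the 9 libraries other than swi6, where it was 117 RPKM. LP0 (PDE_02971) ranged from 166 RPKM in the flbB to 598 in the flbA deletion library, and stood at 90.4 RPKM in the swi6 deletion library. All 3 were at their lowest in the swi6 deletion library, by unequal amounts. Against wild type LP1 was 9.36-fold lower (7.74 to 11.4), LP2 5.73-fold lower (4.95 to 6.66) and LP0 4.21-fold lower (3.81 to 4.67). LP0 was 2.29-fold lower (2.12 to 2.47) in the flbB deletion library as well, where the 3 stalk genes had a median of -0.89, below the list median of -0.56.

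In the other deletion libraries most members stayed within 2-fold of wild type. The flbB deletion library had a member median of -0.56, where all kept genes had -0.40, with 1 of 79 members higher and 4 lower against 12 and 23.0% of all kept genes. In the flbE deletion library the median was -0.44 (all kept genes -0.40), with 1 higher and 0 lower against 10.9 and 21.2%. In the wetA deletion library it was -0.35 (all kept genes -0.26), with 1 higher and 1 lower against 13.8 and 20.9%. These 3 member medians were below 0, as were the medians of all genes in the same libraries. In each of them 76 of 79 members were below 0. Of the 9134 kept genes 6064 were below 0 in the flbB, 6132 in the flbE and 5615 in the wetA comparison. With median-of-ratios scaling these 3 member medians were nearer to wild type, at -0.15, -0.046 and -0.057. The 668 other genes at or above the mean level of the weakest expressed member had medians above 0. These were 0.28 in the flbB, 0.22 in the flbE and 0.30 in the wetA comparison. Those genes were chosen by their mean over the same libraries, which favours genes that are high in the deletion libraries. No contrast with the members can therefore be drawn from these medians. The flbC deletion library had a median of 0.14 (all kept genes 0.12), with 1 higher and 1 lower against 14.6 and 8.85%. The library labelled flbD deletion had 0.11 (all kept genes -0.20), with 1 higher and 0 lower against 11.7 and 12.7%. The library labelled abaA deletion had 0.01 (all kept genes 0.03), with 1 higher and 1 lower against 15.2 and 12.3%, and the stuA deletion library -0.04 (all kept genes -0.15), with 2 higher and 0 lower against 13.3 and 14.6%. The signs of these last medians, in the libraries labelled abaA and stuA deletion, depended on scaling: with median-of-ratios scaling they were -0.00 and 0.15, and without PDE_06605 in the totals the first was -0.10. All 9 comparisons share the wild-type library.

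In the flbA deletion library the members lay farthest above the median gene of the 9 comparisons. The member median was 0.30, where the median of all kept genes was -0.64, and the next largest gap was that of the library labelled flbD deletion, 0.31. On the deposited scale 3 of 79 members were higher and 0 lower, against 9.80 and 37.4% of all kept genes. The 3 were L10e (PDE_04327), a late-joining protein near the site of peptide bond formation, L4e (PDE_09443), which lines the exit tunnel, and L28e (PDE_01007). L10e stood at 541 RPKM in wild type and 1195 in the flbA deletion library, 2.21-fold higher (2.08 to 2.35), L4e at 313 and 650.2 RPKM, 2.08-fold higher (1.95 to 2.21), and L28e at 239 and 481 RPKM, 2.01-fold higher (1.8 to 2.25). L28e was the only member at least 2-fold above all 9 other libraries there, where 2.09% of all kept genes were. The number called depended strongly on scaling in this library: with PDE_06605 left out of the totals the member median was 0.65, with 14 members higher and 0 lower against 14.1 and 29.4% of all genes kept on that scale. With median-of-ratios scaling, which moved the median of all kept genes to 0.01, it was 1.02, with 41 higher and 0 lower against 20.7 and 23.4%. The gap between the member median and that of all kept genes was 0.93, 0.98 and 1.02 on the 3 scales. Other lists of the translation apparatus, described below, also lay above the median gene there on the deposited scale. The gap was 1.05 for mitochondrial or bacterial-type ribosomal proteins, 0.98 for aminoacyl-tRNA synthetases and 1.12 for the single gene RACK1. It was smaller for translation factors, at 0.55, and for ribosome biogenesis genes, at 0.47.

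**Figure D2:**
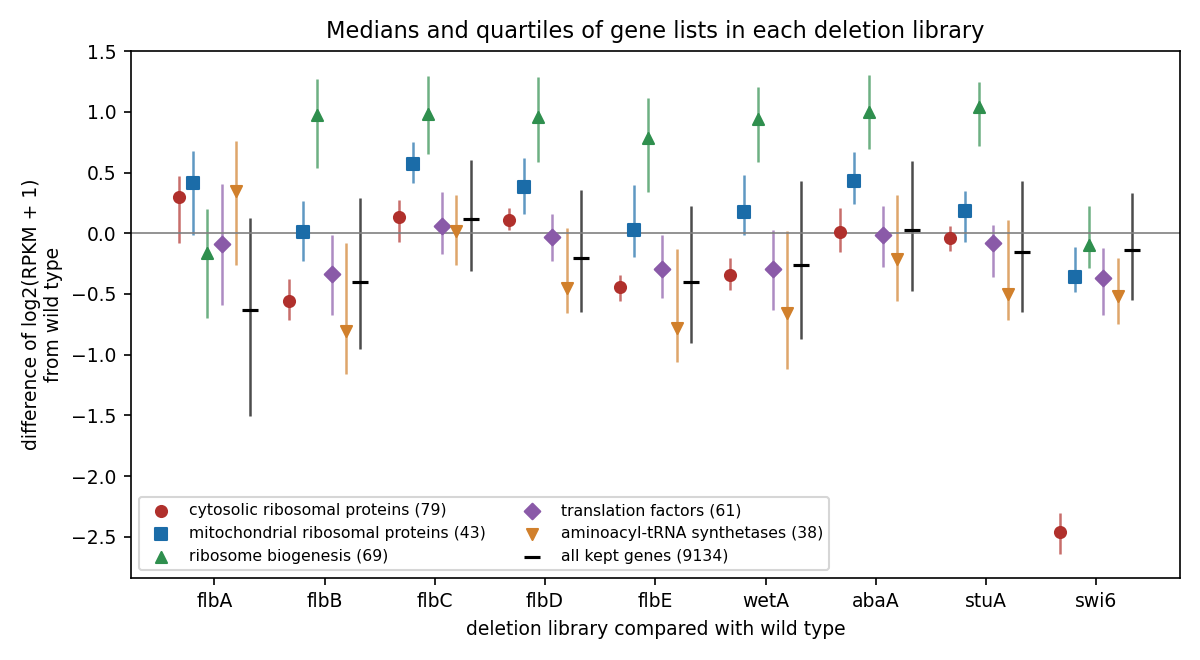
Median difference of log2(RPKM + 1) from wild type (points) with the quartiles of each list (vertical lines), for the members, 4 other lists of the translation apparatus and all kept genes in the 9 deletion libraries. The members stand at -2.46 in the swi6 deletion library, where the other lists lie between -0.51 and -0.09. The ribosome biogenesis list lies between 0.78 and 1.04 in 7 libraries.

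Scaling also shifts how many genes of the whole table are called in each direction. For the flbA comparison the deposited RPKM gave 895 higher and 3420 lower genes, against 1897 and 2148 with median-of-ratios scaling. The same change gave 1618 and 1193 in place of 1099 and 2103 in the flbB, 1478 and 1080 in place of 993 and 1940 in the flbE, and 1684 and 1373 in place of 1258 and 1912 in the wetA deletion library. It gave 1303 and 906 in place of 1072 and 1157 in the library labelled flbD deletion, and 1263 and 890 in place of 1003 and 1090 in the swi6 deletion library. In the stuA deletion library it gave 1464 and 1093 in place of 1217 and 1334. The member median in the swi6 deletion library was -2.27 with that scaling, with 1 member higher and 76 lower against 13.8 and 9.70% of all genes kept.

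The longer members stood higher in the flbA deletion library. Over the 79 members the Spearman correlation of the difference with coding length was 0.47, a description across genes that share 2 libraries, while it was 0.09 over the 9055 other kept genes. The median was -0.30 for the 11 members of up to 300 bases, 0.28 for the 44 of over 300 and up to 600 bases, 0.37 for the 19 of over 600 and up to 900 bases and 0.94 for the 5 longer ones. Other kept genes in the same length classes had medians of -0.85, -0.72, -0.79 and -0.59. The short S25e (PDE_00106) and S29e (PDE_08205) had the lowest differences of all members there, -0.70 and -0.67. In the swi6 deletion library the correlation over the members was 0.02, and the 4 length classes had medians between -2.56 and -2.38. In the remaining comparisons it ran from -0.37, in the library labelled abaA deletion, to 0.11, in the stuA deletion library. The flbC and flbB comparisons had -0.26 and -0.20, so longer members tended to stand lower there. Whether RNA integrity or library preparation differs between these libraries was not tested.

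**Figure D3:**
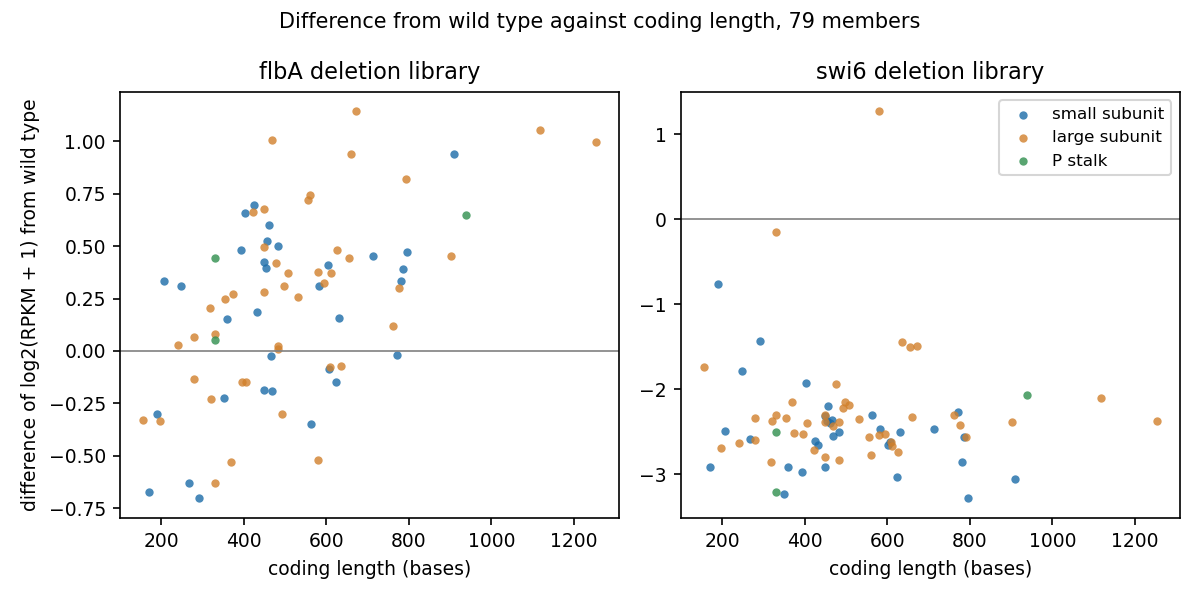
Difference of log2(RPKM + 1) from wild type against coding length in bases for the 79 members, with the flbA deletion library on the left and the swi6 deletion library on the right (the vertical axes differ). Longer members lie higher on the left, with a Spearman correlation of 0.47, and no such slope is seen on the right, where it is 0.02.

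Members differed among themselves in level. The highest mean over the libraries belonged to S25e at 1593 RPKM, followed by S27Ae at 1189.7 RPKM and S3Ae (PDE_02330) at 936 RPKM, all of the small subunit. In the large subunit L29e (PDE_03013) at 789.7 RPKM, L11e (PDE_05649), which binds the 5S ribosomal RNA, at 689 RPKM, and L31e (PDE_08142) at 682 RPKM led. The lowest kept members were L28e at 195 RPKM, SAe at 198, the L24e gene PDE_05375 at 201 and L22e (PDE_04825) at 253 RPKM. S25e was the highest in every library except the flbA deletion library, where S27Ae was. When each library was centred on its own member median, the range of a member over the 10 libraries had a median of 0.68 on the log2 scale, and 62 of 79 members ranged over less than 1. The widest range was 4.52, that of PDE_05375. All 9134 kept genes, centred on their own median in each library, had a median range of 1.77, and 17.6% of them ranged over less than 1. They were not matched to the members in level and reach down to a mean of 1 RPKM, where counting error widens a range. The steadiest members were L6e (PDE_00629), with a range of 0.17, S5e (PDE_00406) with 0.18 and S28e (PDE_00817) with 0.21. S28e, which sits near the channel where the messenger RNA leaves, stood at 388 RPKM in wild type, against 490.4 in the flbA and 68.0 in the swi6 deletion library, each time below the member median by a nearly constant factor.

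Departures from the common movement were few. A member was called an exception in a comparison when its difference lay at least 1 on the log2 scale from the member median. There were 7 such members in all. The swi6 comparison had 5 of 79, where 22.8% of all kept genes lay as far from the median gene, and the flbC comparison had 3, against 23.0%. The flbB and stuA comparisons and that of the library labelled abaA deletion had 2 each, against 30.0, 27.7 and 27.4% of all kept genes. The flbA, flbE and wetA comparisons had 1 each, against 42.1, 27.3 and 33.1%, and so had the library labelled flbD deletion, against 24.0%. Just outside the limit in the swi6 comparison were L10e, with a gap of 0.98, and L10Ae (PDE_00780), with 0.96, and just inside it L19e, with 1.02, and S25e, with 1.03.

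The largest departure was that of an L24e gene. L24e is held by 2 genes, and this protein bridges the subunits. PDE_05375 stood at 60.4 RPKM in wild type, against 41.7 in the flbA, 234 in the flbB and 228 in the flbC deletion libraries, 312 in the library labelled flbD deletion, 281 in the flbE and 227 in the wetA deletion libraries, 197 in the library labelled abaA deletion, 279 in the stuA deletion library and 147 in that of swi6. Wild type and the flbA deletion library were the low ones, and the swi6 deletion library lay between them and the rest. The other L24e gene, PDE_03397, stood at 453 RPKM in wild type, against 606 in the flbA and 236 in the flbB deletion library and at 118 RPKM in the swi6 deletion library, its lowest value. In 8 comparisons PDE_05375 was at least 2-fold higher than wild type, from 2.44-fold (2.05 to 2.91) in the swi6 deletion library to 5.17-fold (4.42 to 6.07) in the library labelled flbD deletion. It was the only member higher in the swi6 deletion library. These comparisons share the low wild-type value, and when the reference was the median over the 9 other libraries its difference turned to -0.63 in the swi6 deletion library, -0.21 in the library labelled abaA deletion and -0.01 in the wetA deletion library. Budding yeast has a relative of L24e, Rlp24, that is a factor of large subunit assembly and not a part of the mature ribosome. Whether PDE_05375 is such a factor was not tested.

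L30e, which in budding yeast regulates the splicing of its own transcript, is also held by 2 genes, and they parted. PDE_04328 stood at 448 RPKM in wild type, against 289 in the flbA, 561 in the flbB and 573 in the flbC deletion libraries, 542 in the library labelled flbD deletion, 448 in the flbE and 488 in the wetA deletion libraries, 692 in the library labelled abaA deletion, 934 in the stuA deletion library and 405 in that of swi6. PDE_09728 stood at 501 RPKM in wild type, against 428 in the flbA, 384 in the flbB and 600.04 in the flbC deletion libraries, 574 in the library labelled flbD deletion, 379 in the flbE and 334 in the wetA deletion libraries, 563 in the library labelled abaA deletion, 506 in the stuA deletion library and 95.5 in that of swi6. The first was near its wild-type level in the swi6 deletion library, 1.11-fold lower (0.999 to 1.23), and the second was 5.25-fold lower (4.45 to 6.22). In the stuA deletion library the first was 2.08-fold higher (1.92 to 2.27) and the second 1.01-fold higher (0.923 to 1.11). Both genes are kept apart by the counting of uniquely placed reads, so reads that fit 2 genes equally would be missing from each.

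**Figure D4:**
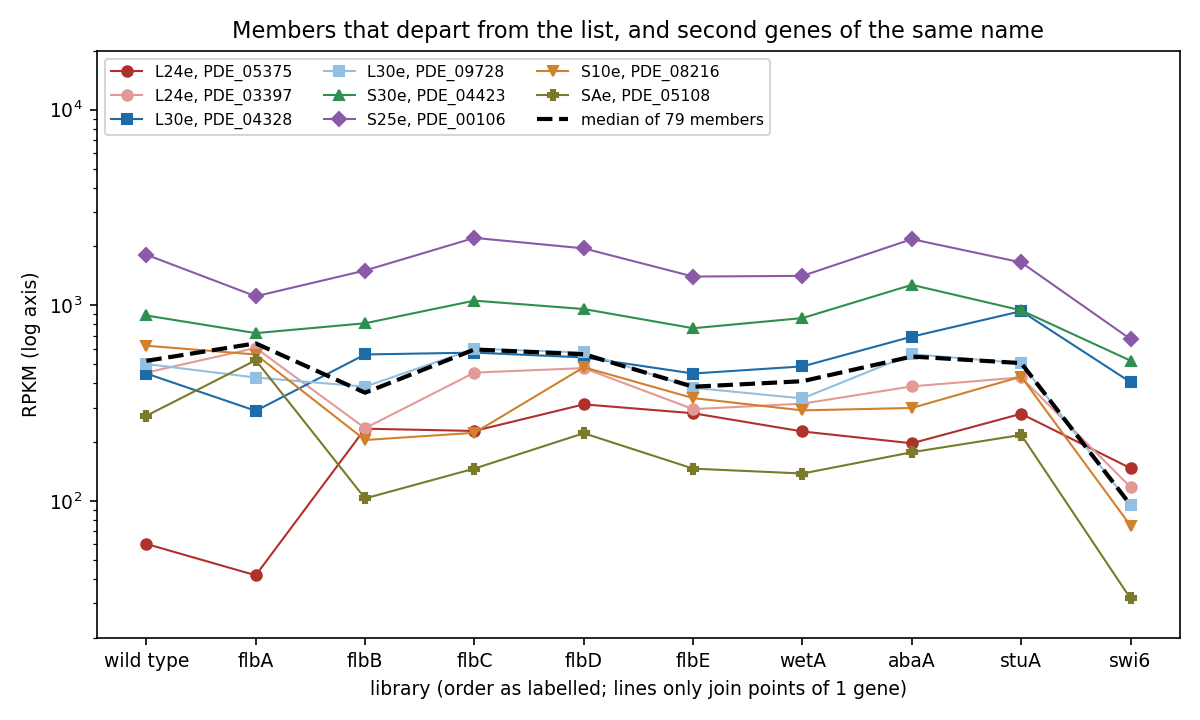
RPKM (log axis) in the 10 libraries for 6 of the 7 members that depart from the common movement, the second genes of L24e and L30e, and the median of the 79 members (dashed). The median lies at 521 RPKM in wild type and at 95.5 in the swi6 deletion library, while the L30e gene PDE_04328 stands at 448 and 405 RPKM and the L24e gene PDE_05375 at 60.4 and 147 RPKM.

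S30e, S25e and L19e were lower in the swi6 deletion library by less than the others. S30e (PDE_04423), which in human cells is made as a fusion to a ubiquitin-like protein, stood between 721 and 1273 RPKM in the 9 other libraries, at 887 in wild type, and at 522 RPKM in the swi6 deletion library. It was 1.70-fold lower than wild type (1.53 to 1.90). S25e, a protein of the small subunit head, stood at 1814 RPKM in wild type, between 1113 and 2212 in the 8 other libraries, and at 672 RPKM in the swi6 deletion library, 2.70-fold lower (2.52 to 2.90). L19e (PDE_04099), which also takes part in a bridge between the subunits, stood at 634 RPKM in wild type and at 233 in the swi6 deletion library, 2.72-fold lower (2.51 to 2.95). All 3 still had their lowest value in the swi6 deletion library. The 7 members that were not 2-fold below every other library there were these S25e and S30e genes, both L24e genes, the L30e gene PDE_04328, L10Ae and LP0.

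S10e and SAe, both of the small subunit, were low in other libraries. S10e (PDE_08216), which lies beside the entry channel of the messenger RNA, stood at 622 RPKM in wild type, against 561 in the flbA, 205 in the flbB and 223 in the flbC deletion libraries, 483 in the library labelled flbD deletion, 336 in the flbE and 291 in the wetA deletion libraries, 299 in the library labelled abaA deletion, 432 in the stuA deletion library and 74.9 in that of swi6. It was at its highest in wild type. Its level was 3.03-fold lower (2.80 to 3.29) in the flbB and 2.79-fold lower (2.54 to 3.05) in the flbC deletion library, where the member medians were -0.56 and 0.14. In the library labelled abaA deletion it was 2.08-fold lower (1.94 to 2.23), where the member median was 0.01. Reads covered between 81.6 and 82.05% of its gene model in each of the 10 libraries. SAe stood at 273 RPKM in wild type, against 524 in the flbA, 103 in the flbB and 147 in the flbC deletion libraries, 222 in the library labelled flbD deletion, 146 in the flbE and 138 in the wetA deletion libraries, 178 in the library labelled abaA deletion, 218 in the stuA deletion library and 31.8 in that of swi6. Only the flbA deletion library exceeded wild type for SAe. Its gap to the member median was -1.03 in the flbC deletion library and -0.84 in the flbB deletion library.

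The second gene named S9e had almost no uniquely placed reads, and reads that fit both S9e genes equally would be missing from each. S9e helps to set the accuracy of decoding. PDE_01806 stood at 599 RPKM in wild type and 108 in the swi6 deletion library. PDE_09210, of 588 bases, had 1 read in the library labelled flbD deletion, 2 in the flbE, 1 in the wetA and 1 in the swi6 deletion library, and 0 reads in the other 6 libraries, where 3 reads is the limit that a count of 0 allows. It is the member that did not pass the filter on low values.

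Lists of other translation genes, taken by words in their names, lay less far below wild type in the swi6 deletion library than the members. The 43 ribosomal proteins of the mitochondrial or bacterial type had a median difference of -0.36 there, with 1 higher and 0 lower. The 1 higher gene carries the name YMR-31 (PDE_02554) and was taken by that name alone. Whether it encodes a ribosomal protein was not tested. It stood at 100.3 RPKM in wild type and 1709.9 in the swi6 deletion library. It was above its wild-type level in the other 8 libraries too, at 301.5 to 544 RPKM. Translation factors, 61 genes of which 6 are transcription elongation factors and 3 are kinases or factor 2C taken by the same words, had a median of -0.37, with 1 higher and 3 lower. Elongation factor 1-alpha (PDE_09012), which brings aminoacyl-tRNA to the ribosome, was among the lower genes, at 967 RPKM in wild type and 301.6 in the swi6 deletion library. It was below wild type in all 9 deletion libraries, at 451 RPKM in that of stuA and at 48.4 to 271 RPKM in the other 7, which lay below the swi6 value. The 38 kept aminoacyl-tRNA synthetases had a median of -0.51, with 1 higher and 6 lower. These shares are to be read against the 11.0 and 11.9% of all kept genes. Below 0 were 37 of the 43 ribosomal proteins of that type, 49 of the 61 translation factors and 35 of the 38 synthetases. Of the 9134 kept genes 5341 were below 0. RACK1 (PDE_08338), a scaffold protein bound to the head of the small subunit that the naming rule does not take, went with the members: it stood at 471 RPKM in wild type and 67.3 in the swi6 deletion library, 7.0-fold lower (6.26 to 7.84).

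The 69 genes of the ribosome biogenesis list were taken by words for assembly in the nucleolus and for subunits of RNA polymerase I. That enzyme transcribes ribosomal RNA. Among the 69 genes 1 is a D-amino-acid oxidase taken by the same words. The list had a median of 0.98 in the flbB and 0.98 in the flbC, 0.78 in the flbE, 0.94 in the wetA and 1.04 in the stuA deletion libraries. It had 0.96 in the library labelled flbD deletion and 1.0 in the library labelled abaA deletion. Of the 69 genes 33 were higher and 0 lower in the flbB comparison, 34 and 1 in the flbC, 21 and 0 in the flbE, 32 and 0 in the wetA and 38 and 0 in the stuA comparison. In the libraries labelled flbD and abaA deletion 33 and 35 were higher and 0 lower. Between 10.9 and 15.2% of all kept genes were higher in these 7 comparisons, and between 8.85 and 23.0% lower. In the flbA and swi6 deletion libraries the biogenesis medians were -0.16 and -0.09. There 2 genes of the list were higher and 7 lower in the first, against 9.80 and 37.4% of all kept genes. In the second 1 was higher and 1 lower, against 11.0 and 11.9%. The signs of both biogenesis medians depended on scaling, with 0.52 and 0.10 under median-of-ratios scaling. They lay 0.47 and 0.04 above the median gene of the same library. When the reference was the median over the 9 other libraries, the swi6 deletion library had 33 of these genes lower and 1 higher, where 11.5% of all kept genes were lower, with a list median of -0.96. That reference holds the 7 libraries where the list stood 0.78 to 1.04 above wild type, so it lies high for these genes. Wild type was not set against it, so this low level cannot be called particular to the swi6 deletion library.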

How the data were processed

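RNA from mycelia of the 10 strains was sequenced, 1 library per genotype, and groups were taken from the genotype labels. The authors deposited, per the file headers, per-gene counts of reads placed uniquely, RPKM computed from count, coding length in bases and library total, and the percent of each gene covered by reads. RPKM was recomputed here, and the largest relative gap to the file was 2.57e-08. CASAVA 1.8 is named in the submitters' processing notes. The aligner, genome build, annotation and use of strand are each not given in the sources used here. A dash was read as 0. Lengths are multiples of 3 for 9856 of 9859 genes. No column belonged to another sample.

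Members and lists were chosen with earlier results of these data known. Differences are log2(RPKM + 1), with a pseudocount of 1, for the 9134 genes with a mean of at least 1 RPKM, 725 being removed. The pseudocount makes differences of weakly expressed genes smaller. Folds are RPKM ratios with exact conditional (Clopper-Pearson) 95% intervals, and shares have 95% Wilson intervals. The interval and count code was tested on simulated data. With 1 library per genotype no test or p-value was computed. Read totals of 3.10 M to 7.60 M gave the median member between 261 and 2081 reads per library.

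Named by rule are the P stalk, SAe and S27Ae, the 3 highest and 3 lowest members of each subunit, exceptions, shared names, the 3 largest and 3 smallest centred ranges, and the 2 highest and 2 lowest members per comparison. L10Ae was named as lying just outside the exception limit, after its value was seen. Alternatives were another pseudocount, filter, scaling, reference, membership, call rule, denominator and exception threshold. No sequence or coordinate is given. Python 3.11.15, pandas 2.3.3, numpy 2.4.6, scipy 1.17.1 and matplotlib 3.10.9 were used.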

Additional observations from a re-analysis of the deposited data

How the results depend on the processing

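The low level of the members in the swi6 deletion library kept its direction under the alternatives of pseudocount, filter, scaling, membership and median reference, with list medians from -2.50 to -2.27, or -2.41 to -2.31 relative to all kept genes, and against each other deletion library in turn, with medians from -2.72 to -1.88. The other comparisons depended more on scaling and reference. With median-of-ratios scaling the member medians were 1.02 in flbA, -0.15 in flbB, 0.29 in flbD, -0.046 in flbE, -0.057 in wetA and 0.15 in stuA. With it 41 members were called in flbA, 2 in flbB and 1 in wetA. The splits of all genes were then 1897 higher and 2148 lower in flbA, 1618 and 1193 in flbB and 1684 and 1373 in wetA. With totals without PDE_06605 the medians were 0.65 in flbA and -0.15 in stuA, and 14 members were called in flbA, 3 in flbE and 1 in stuA. The split of all genes was then 1287 higher and 2697 lower in flbA, 895 and 2328 in flbE and 1085 and 1573 in stuA. The members' shares of reads were then 2.41% in wild type, 3.76% in flbA, 1.58% in flbB, 2.64% in flbC, 2.45% in flbD, 1.81% in wetA, 2.30% in abaA and 0.489% in swi6. When the reference was the median over the 9 other libraries the medians were 0.27 in flbC, 0.30 in flbD, 0.16 in abaA and 0.13 in stuA. Then 9 members were called in flbA and 0 in flbB, flbC, flbD, flbE, wetA, abaA and stuA. Of the 9134 kept genes 740 were higher and 3160 lower in flbA with that reference, and 1400 and 496 in flbC. The same reference gave 725 called genes of the whole table in flbB, 463 in flbD, 578 in flbE, 1005 in wetA, 858 in abaA and 1690 in stuA, and turned the L24e gene PDE_05375 to -0.63 in swi6, -0.21 in abaA and -0.0089 in wetA. Counting only genes whose exact interval lay beyond 2-fold, 1 member was called in each of flbA, wetA, abaA and stuA, while among all kept genes 2849 were called in flbA, 2028 in flbB, 1366 in flbC, 1438 in flbD, 1832 in flbE, 1696 in stuA and 1364 in swi6. With names held by 1 gene only, 1 member was called in each of flbC, wetA and abaA and 0 in flbD, flbE and stuA. A pseudocount of 5 gave 1938 called genes in flbE. At a 1.5-fold limit 29 members were exceptions somewhere, 17 in flbA, 5 in flbB, 9 in flbC, 2 in flbE, 3 in wetA, 7 in abaA and 13 in swi6. All kept genes were not counted at that limit. At the 2-fold limit already 22.8% of them, in swi6, to 42.1%, in flbA, lay as far from the median gene. A looser limit can only raise these shares. The cause was not tested for any of the changes under the alternatives, beyond what the alternative changes by construction.

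Medians of the subunits in the swi6 deletion library were between -2.54 and -2.20 under the alternatives of scaling, pseudocount and reference. No paired analysis was possible because each genotype has 1 library. A difference between 2 libraries here compares those libraries, and culture, RNA quality and genotype cannot be told apart. Depth limits the S9e gene PDE_09210 alone among the members, since the other members had at least 75 reads in every library.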

Other observations

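Outside the members, 32 other genes stood at least 2-fold below all 9 other libraries in the swi6 deletion library, of which 14 have an informative name. They were named after their values were seen. Besides RACK1 and the chromobox protein 1, they are a cutinase (PDE_07475), PDE_06752 and PDE_00643, both delta-12 fatty acid desaturases, a methionine sulfoxide reductase (PDE_04638), a seryl-tRNA synthetase (PDE_02127), an ATP adenylyltransferase (PDE_03910), a Ca2+:H+ antiporter (PDE_01332), and the genes that follow. RRN7 (PDE_02848), an initiation factor of RNA polymerase I, the enzyme that transcribes ribosomal RNA, stood at 160.1 RPKM in wild type and 46.4 in the swi6 deletion library, 3.45-fold lower (95% exact interval 3.12 to 3.81). RPAC2 (PDE_01115), a subunit shared by RNA polymerases I and III, was 2.54-fold lower (1.70 to 3.87). The gene named plasminogen activator inhibitor 1 RNA-binding protein (PDE_05035), whose family includes the yeast ribosome-bound protein Stm1, was 5.62-fold lower (4.89 to 6.47). TRM112 (PDE_02488), which activates methyltransferases that act on transfer RNA, ribosomal RNA and a release factor, was 3.18-fold lower (1.66 to 6.51). Subunit c of the mitochondrial ATP synthase (PDE_07836) was 3.49-fold lower (3.06 to 3.98), and the delta-12 fatty acid desaturase PDE_00643 3.13-fold lower (2.80 to 3.52).

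Neighbouring locus numbers hold 3 pairs of members: S9e with L21e (PDE_01806 and PDE_01807), LP2 with S15e (PDE_03779 and PDE_03780), and L10e with the L30e gene PDE_04328 (PDE_04327 and PDE_04328). The last pair holds the member with the highest difference in the flbA deletion library, L10e at 1.14, beside a gene at -0.63.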
